A study of Mus musculus with 4 samples.

Results

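The cells described here were CD8+ T cells (Tc) from the spleens of transplanted, leukemia-bearing mice that held RNA of both Gzmk and Eomes and of none of 6 genes that mark neighboring CD8+ Tc states. Members were chosen by measured values, cell by cell. A barcode was kept with at least 500 genes, at least 1000 unique molecular identifiers (UMIs, each a count of 1 captured transcript) and at most 10% mitochondrial UMIs. It was called a CD8+ Tc with at least 1 UMI of Cd3d, Cd3e or Cd3g, at least 1 of Cd8a or Cd8b1, and 0 of Cd4 and of the erythroid factor Klf1. A CD8+ Tc became a member with at least 1 Gzmk UMI, at least 1 Eomes UMI and 0 UMIs of Nr4a2, Itga1, Cx3cr1, Tcf7, Mki67 and Top2a. The rule found 190 cells among 4267 CD8+ Tc, 11632 kept cells and 15784 barcodes.

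Each of 4 single-cell 3′ RNA libraries came from the spleen of 1 mouse. Recipients were lethally irradiated, received WEHI-3B cells (a BALB/c myelomonocytic leukemia line, 10000 cells) with allogeneic bone marrow, and received 200000 donor T cells on day 2. T cells were isolated on day 23 with a pan-T cell kit and stained with a tagged antibody to the donor haplotype H2K-b, according to the labels. The study's text also speaks of sorted donor cells, and which was done for these libraries was not settled. Donor T cells were labelled Havcr2fl/fl;E8icre/+ in 2 mice and Havcr2fl/fl in 2 mice. The floxed Havcr2 gene encodes the inhibitory receptor TIM-3, and E8icre is a Cre transgene driven by a Cd8a enhancer, so deletion is meant for CD8+ cells while other donor and host cells keep the gene. All mice carried leukemia and an allogeneic graft, and no unirradiated or leukemia-free group was analysed here. Lists of 4 values below give Havcr2fl/fl;E8icre/+ replicates 1 and 2 and then Havcr2fl/fl replicates 1 and 2.

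Granzyme K is a serine protease of cytotoxic granules with trypsin-like specificity, and Eomes is a T-box transcription factor shared by effector, memory and exhausted CD8+ T cells. Gzmk and Eomes RNA are often found together in CD8+ Tc that lie between memory precursors and terminal states, in chronic infection, tumors and aged tissue. The excluded genes point to other states. Nr4a2 is induced by T cell receptor signals and is common in terminal exhaustion, Itga1 marks tissue residence, Cx3cr1 marks short-lived effectors, Tcf7 marks precursors, and Mki67 and Top2a mark dividing cells.

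The Gzmk promoter is shown because the rule joins this gene with a T-box factor. The 250 bases before the RefSeq start of Gzmk lie at chr13:113180966-113181215 on the minus strand of GRCm38.p6, and the capitals mark GGTGTGA, the letters of a T-box core, whose first base is 75 bases before the start.
Gzmk: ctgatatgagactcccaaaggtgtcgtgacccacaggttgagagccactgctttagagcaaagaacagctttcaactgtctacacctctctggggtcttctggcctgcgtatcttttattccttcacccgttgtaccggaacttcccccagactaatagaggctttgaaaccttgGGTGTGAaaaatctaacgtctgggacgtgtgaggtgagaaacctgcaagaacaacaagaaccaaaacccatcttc
GGTGTGA or its reverse complement TCACACC occurred in a RefSeq promoter window of 4.60% of 27025 genes. Windows ran from 250 bases before to 50 bases after each start. The windows of Eomes, Ctla2a, Gzma, Gzmb, Il7r and Havcr2 did not hold these letters, while that of Isg15, an interferon-stimulated gene, did. Among genes tested against the other CD8+ Tc, a comparison given further on, the share was 3.87% of 7417 with a window, 6.67% of the 210 higher in members and 2.87% of the 418 lower. A match describes the letters only, and no test was made.

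The members were 75, 50, 16 and 49 cells of 1542, 960, 493 and 1272 CD8+ Tc. Among all CD8+ Tc, 1623 held Gzmk, 1926 held Eomes and 1060 held both. The exclusions then removed most of these double-positive cells, since 46.1% of them held Nr4a2, 44.4% Mki67, 44.0% Top2a, 15.3% Cx3cr1, 6.70% Tcf7 and 1.98% Itga1. The 190 members were 17.9% of the double-positive cells. In each library the median member had fewer UMIs than the median other CD8+ Tc, at 3684, 5237, 6692.5 and 2942 against 4862, 6208, 7050 and 3064. A gene is easily missed in a cell of this depth, so 0 UMIs of an excluded gene is not the absence of its RNA.

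The values that the rule used were as follows, given with no test. Levels are counts per 1000000 UMIs (CPM), with UMIs summed over the cells of a library. Gzmk (chr13:113171608-113225908, minus strand, GENCODE M21 on GRCm38) stood at 458, 407, 361 and 610 CPM in members and at 117, 113, 113 and 209 CPM in the other 4077 CD8+ Tc. These levels rest on 140, 121, 42 and 92 Gzmk UMIs in members. Eomes (chr9:118478212-118486132, plus strand) stood at 478, 394, 361 and 458 CPM in members and at 212, 123, 128 and 149 CPM in the others. Erythroid cells, which should lack both genes, gave the background from free RNA. Among Klf1+ cells without Cd3 or Cd8 RNA, none of 519, 356, 159 and 1812 cells held both genes, at median depths of 23591, 12784.5, 15365 and 18689.5 UMIs.

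Gzmk and Eomes RNA went together in the CD8+ Tc of each mouse, a relation measured over all CD8+ Tc and given as a description. Eomes was found in 76.3%, 66.4%, 64.5% and 52.6% of Gzmk+ cells and in 24.6% to 43.8% of Gzmk- cells, and within each library the Gzmk+ share was the higher. With every cell thinned to 2000 UMIs the shares were 46.2%, 29.8%, 35.8% and 32.3% against 28.6%, 15.5%, 19.0% and 21.5%. Gzmk+ cells thus had the higher share in all 4 libraries at matched depth too.

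Ccl5 and Ctla2a had been proposed as further markers of these cells with the data known, and their levels are likewise given here with no test. They stayed in the fits, and are counted below in the chemokine and granule lists and, for Ctla2a, among the largest rises. Those counts and calls are no independent evidence. Ccl5 (chr11:83525778-83530518, minus strand) encodes a chemokine that recruits T cells and myeloid cells and is stored by memory and effector CD8+ T cells. Its level was 31234, 34450, 24644 and 32489 CPM in members and 16010, 11841, 15694 and 17066 CPM in the other CD8+ Tc, a mean of 30704 ± 4252 against 15153 ± 2284 CPM (SD, n = 4 mice). Every member library was above every other library, and at 2000 UMIs per cell Ccl5 was found in 100% of members. Ctla2a (chr13:60934155-60936625, minus strand) encodes a small protein related to cathepsin propeptides. Its level was 455, 461, 584 and 378 CPM in members and 182, 239, 277 and 295 CPM in the others, again without overlap.

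Cells just outside the rule differed in how near they came to the members in Ccl5. Among CD8+ Tc with the 6 excluded genes at 0, cells with neither gene had 12352, 9893, 11993 and 16326 CPM of Ccl5. Cells with Eomes alone had 24236, 22777, 17226 and 27267 CPM, and cells with Gzmk alone had 37761, 30392, 22088 and 31646 CPM. Members with exactly 1 UMI of each gene (22, 7, 4 and 19 cells) had 27581, 33322, 16180 and 34490 CPM, and members with more had 32838, 34593, 26753 and 31238 CPM. The cells with neither gene were the lowest in each library, Eomes-only cells lay below the members with more UMIs in each, and Gzmk-only cells lay at or near the members. Il7r, the receptor chain for the survival cytokine IL-7, was at 252, 220, 472 and 212 CPM in cells with neither gene. It was at 0, 0, 0 and 17.3 CPM in members with 1 UMI of each, and at 23.5, 3.79, 107 and 10.8 CPM in members with more. Cells with Eomes alone had 30.1, 6.20, 0 and 36.1 CPM of Il7r, and cells with Gzmk alone had 48.6, 131, 272 and 36.0 CPM. For Il7r, unlike Ccl5, Gzmk-only cells thus lay above both sets of members in each library.

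**Figure D1:**
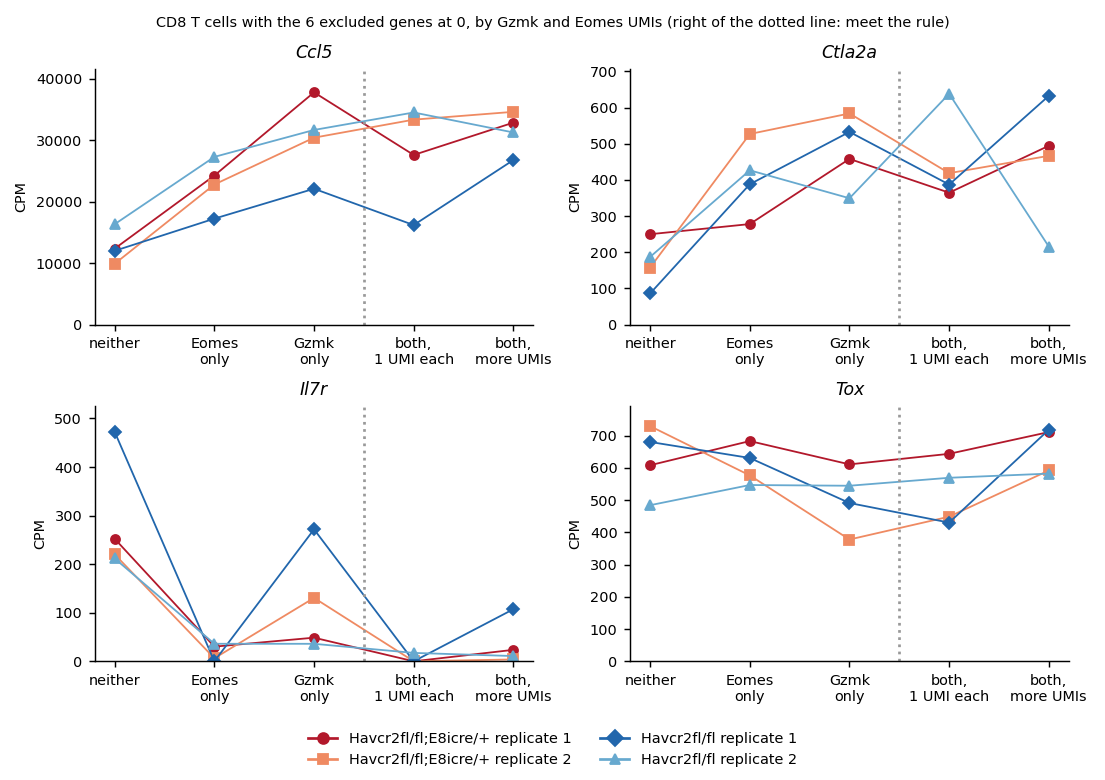
Levels of Ccl5, Ctla2a, Il7r and Tox (y axes, CPM) in CD8+ Tc with the 6 excluded genes at 0, grouped on the x axis by Gzmk and Eomes UMIs, with 1 line per library; groups right of the dotted line meet the rule. Ccl5 is lowest in cells with neither gene in every library, at 9893 to 16326 CPM, and for Ccl5 the Gzmk-only cells lie close to members.

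Members were compared with the other 4077 CD8+ Tc of the same mice, gene by gene, on UMIs summed per library (edgeR, mouse as block). Of 9319 genes tested, 829 (8.90%) passed an adjusted p of 0.05, 285 (3.06%) higher in members and 544 (5.84%) lower. The exclusions took out cells with Mki67 or Top2a, and all 24 tested cell cycle genes were lower, with a median log2 fold change of -1.92. How much of the rest of the lower set goes with the exclusions was not tested. A closer comparator was therefore used as well, the 769 other CD8+ Tc that also had the 6 excluded genes at 0. Against these, 206 of 5354 genes (3.85%) passed, 76 (1.42%) higher and 130 (2.43%) lower. Stmn1, a microtubule regulator of dividing cells, was lower by the first comparison (log2 fold change -2.38) and higher by the closer one (0.97), as were the chromatin proteins Hmgb2 (-1.28 and 0.48) and Hmgn2 (-0.86 and 0.82). The p-values weigh the size of a difference and its counts against a spread estimated over many genes. A small p-value thus does not mean that a difference was even over the 4 mice. Both comparisons use the same member cells.

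Granule genes were higher in part. Of 14 tested against all other CD8+ Tc, 4 rose and 0 fell (median log2 fold change 0.09, against -0.04 over all genes tested). Gzmb (chr14:56258838-56262260, minus strand), the main apoptosis-inducing granzyme, stood at 750, 862, 386 and 1347 CPM in members and at 502, 368, 302 and 626 CPM in the others. It was higher in each mouse (log2 fold change 0.86 ± 0.09 SE, adjusted p = 2.57e-17), and likewise against the closer comparator (0.82 ± 0.11, adjusted p = 2.40e-08). The first of these calls was lost without the mouse block. Nkg7, a granule membrane protein needed for exocytosis, rose by 0.45 and Fasl, the death ligand of the Fas receptor, by 0.84 on the log2 scale. The fourth was the marker Ctla2a. In the closer comparison 4 of 13 rose (Gzma, Gzmb, Nkg7 and the marker Ctla2a) and 2 fell, and Fasl did not pass (0.42, adjusted p = 0.131). The 2 that fell were the granule proteoglycan gene Srgn (-0.46) and the cathepsin gene Ctsw (-0.48).

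Gzma (chr13:113093825-113100981, minus strand), a tryptase of the same granules encoded near Gzmk, varied widely between mice. Members had 1542, 482, 60.1 and 5295 CPM, the other CD8+ Tc 1382, 759, 423 and 2700 CPM, and the closer comparator 615, 295, 63.8 and 2067 CPM. Havcr2fl/fl replicate 2 was highest and replicate 1 lowest in all 3 sets of cells. Against all other CD8+ Tc the log2 fold change was 0.03 (adjusted p = 0.914), with -0.44 without Havcr2fl/fl replicate 2 (adjusted p = 0.0197) and 0.24 without Havcr2fl/fl replicate 1 (adjusted p = 0.0411). Against the closer comparator Gzma was higher by 1.15 ± 0.10 (adjusted p = 6.17e-15), in 3 of 4 libraries.

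Of 14 chemokine and cytokine genes tested, 5 fell, 8 did not pass and the marker Ccl5 was counted as higher. In the closer comparison 2 of 8 were higher, Ccl3 and the marker Ccl5, and 3 fell (median -0.11). Tnfsf8, the ligand of CD30, fell from 78.2, 189, 124 and 96.2 CPM in the closer comparator to 0, 16.8, 0 and 26.5 CPM in members (log2 fold change -3.58 ± 0.35, adjusted p = 1.02e-12). Xcl1, a chemokine for cross-presenting dendritic cells that precursor CD8+ T cells make, fell by 4.92 on the log2 scale against all other CD8+ Tc, with 2 UMIs in all members. Ccl3 and Ccl4, inflammatory chemokines induced by receptor signals, fell by 0.74 and 0.56 against all others. In the closer comparison Ccl3 was higher by 0.67, so its direction depended on which CD8+ Tc stood for the rest.

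Of 15 naive and precursor T cell genes tested, 10 fell, 5 did not pass and 0 rose against all other CD8+ Tc (median -0.98). Against the Nr4a2+ cells described below, 2 of 5, Ly6c2 and Klf2, were higher in members and 0 lower. Il7r stood at 16.4, 3.37, 85.8 and 13.3 CPM in members against 107, 158, 241 and 104 CPM in the other CD8+ Tc (-2.80 ± 0.26, adjusted p = 1.91e-24), without overlap between the sets. Against the closer comparator, at 145, 155, 379 and 137 CPM, the fall was -3.11 ± 0.27 (adjusted p = 4.07e-15). In the Nr4a2+ cells Il7r was at 20.1, 0, 5.86 and 0 CPM, a mean of 6.50 against 29.7 CPM in members. It was below the members there in every library but Havcr2fl/fl;E8icre/+ replicate 1, with too few counts to be tested. At 2000 UMIs per cell Il7r was found in 2.76% of members on average and in 17.1% of the others. Slamf6, a surface receptor of precursor exhausted cells, was at 19.6, 64.0, 68.7 and 59.7 CPM against 76.2, 147, 89.3 and 62.7 CPM (-1.05 ± 0.22, adjusted p = 1.23e-04). Only 2 of 11 genes, Il7r and the chromatin organizer Satb1, fell in the closer comparison, where Slamf6 gave -0.57 (adjusted p = 0.267). The call of Slamf6 was also lost in DESeq2 (-0.95, adjusted p = 0.0809). The first comparison counts Tcf7+ cells among the others.

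**Figure D2:**
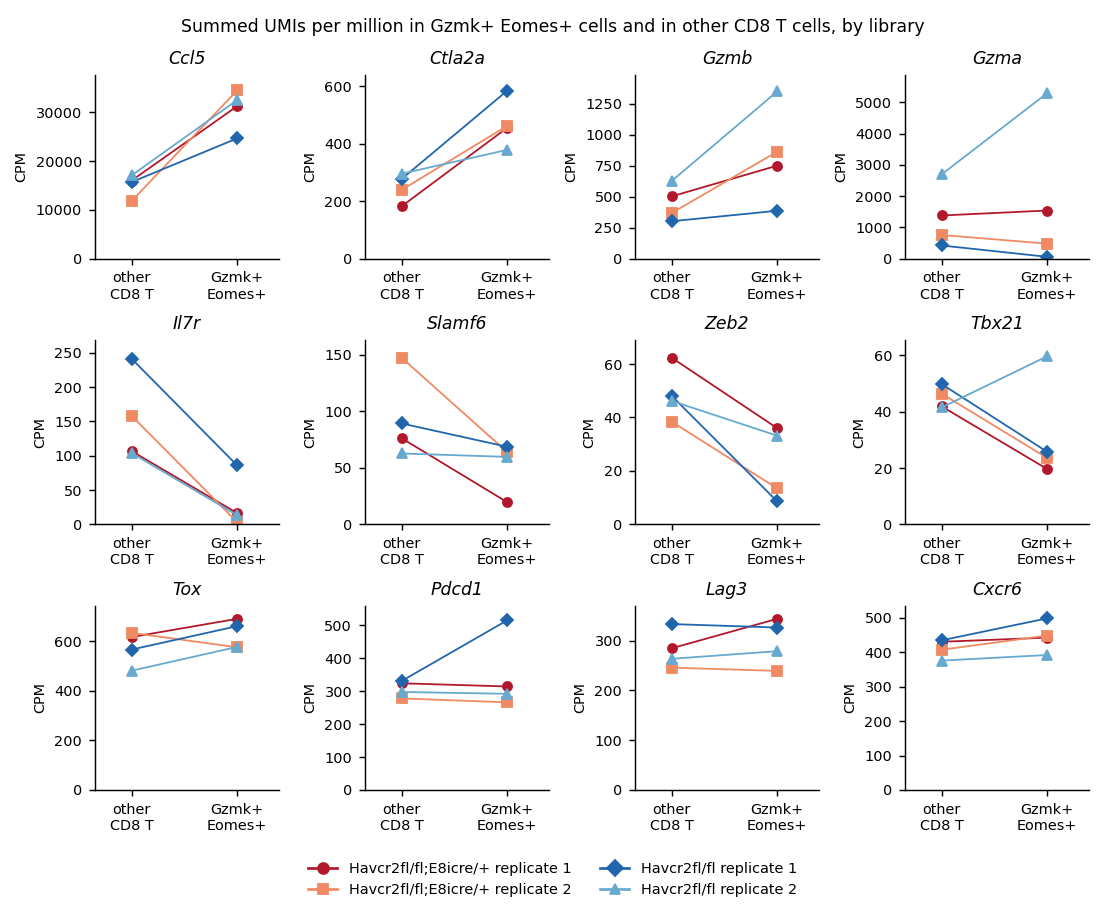
Levels of 12 genes (y axes, CPM) in the other CD8+ Tc and in Gzmk+ Eomes+ members, with 1 line per library. Ccl5, Ctla2a and Il7r do not overlap between the sets, Gzmb is higher in members in all 4 libraries, and Tox, Pdcd1 and Lag3 overlap.

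Some killer lectin-like receptor genes and both IL-18 receptor genes fell in both comparisons. Klrk1 (NKG2D, an activating receptor for stress ligands) gave -1.89 against all other CD8+ Tc and -1.80 in the closer comparison. Klrc1 and Klrc2, chains of the NKG2A and NKG2C receptors, gave -1.20 and -1.28, and -1.34 and -1.60 in the closer comparison. Of killer lectin-like receptor genes, 3 of 8 fell and 5 did not pass in the first comparison, 4 of 5 fell in the second, and 0 rose in either. Il18r1 and Il18rap, the chains of the IL-18 receptor, fell in both comparisons, with Il18rap at -1.95 and the pair at -2.22 and -2.40 in the closer one. Among 19 cytokine receptor genes 5 fell and 3 rose against all other CD8+ Tc: Il21r (0.67), the inhibitory chain Il10ra (0.59) and Tgfbr2 (0.53), of which Il21r rose in the closer comparison too (0.58). Against the Nr4a2+ cells described below, 0 of 2 killer lectin-like receptor genes passed, and neither IL-18 receptor gene was called. The killer lectin-like list summed to 478, 212, 300 and 352 CPM in members and 490, 367, 263 and 442 CPM in Nr4a2+ cells. In the other CD8+ Tc it was 501, 552, 679 and 506 CPM.

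Pdcd1, Lag3 and the exhaustion factor gene Tox did not pass in either comparison. Tox stood at 691, 576, 661 and 577 CPM in members and 617, 634, 567 and 481 CPM in the others (log2 fold change 0.08 ± 0.10, adjusted p = 0.767), and at 2000 UMIs per cell it was found in 65.6% ± 2.84 of members (SD, n = 4). Pdcd1, which encodes PD-1, was at 314, 266, 515 and 292 against 324, 278, 331 and 298 CPM (0.07 ± 0.11, adjusted p = 0.833). Lag3 was at 344, 239, 326 and 279 against 285, 246, 333 and 263 CPM (0.06 ± 0.12, adjusted p = 0.862). The groups overlap for all 3 genes, and their closer-comparison values were 0.03, -0.03 and -0.17 with adjusted p of 0.941, 0.955 and 0.599. Of 18 genes of this list 2 rose, the ectoenzymes Cd38 (0.81) and Entpd1 (0.61), and 1 fell, Cd200 (-1.80). In the closer comparison 0 of 14 rose and 1 fell, Lilrb4a (-0.93).

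Of short-lived effector markers, Klrg1 was sparse in members and others alike. It was at 9.82, 6.74, 0 and 19.9 CPM in members, from 8 UMIs, and at 6.86, 10.0, 9.32 and 9.11 CPM in the others (0.07, adjusted p = 0.981). Zeb2, a repressor that drives terminal effector differentiation, was at 36.0, 13.5, 8.58 and 33.2 CPM against 62.4, 38.4, 48.1 and 46.2 CPM (-1.06 ± 0.31, adjusted p = 0.0104), a call that the closer comparison did not give (-0.45, adjusted p = 0.633). It was also lost without either Havcr2fl/fl;E8icre/+ library (-1.28 and -0.96) and without Havcr2fl/fl replicate 1 (-0.91). DESeq2, cells thinned to 2000 UMIs and a fit without the mouse block lost it as well. Tbx21, which encodes T-bet, gave -0.64 (adjusted p = 0.208), and passed without Havcr2fl/fl replicate 2 (-1.05, adjusted p = 0.0418). Among transcription factor genes 3 of 18 rose against all others: Runx3 (0.33), Ikzf3 (0.39) and Maf (0.72), and Zeb2 alone fell. None of these 4 passed in the closer comparison, where 1 of 16 rose, Ikzf2 (0.87), and 2 fell, Id2 (-0.46) and Rora (-0.74). Of the genes above that bear on the name effector-like, Gzmb and Nkg7 were higher in both comparisons, Fasl in the first alone and Gzma in the closer alone. Zeb2 and Tbx21 were higher in neither, and Klrg1 was too sparse to be tested in the closer comparison. The cells are called Gzmk+ Eomes+ cells here.

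Interferon-stimulated genes were higher in 6 of 21 tested and lower in 1 (median 0.40) against all other CD8+ Tc. Examples are Ifi27l2a (0.47) and Ifit1bl1 (1.04), and the member that fell was Ifitm3 (-1.97). Isg15 was at 105, 104, 17.2 and 66.4 CPM in members and did not pass (0.41, adjusted p = 0.237), though it did with high doublet scores removed (0.69, adjusted p = 0.0186). In the closer comparison 1 of 18 rose, Ifi27l2a (0.36), and 1 fell, Ly6a (-0.56). Against the Nr4a2+ cells described below, Ly6a was instead higher in members (1.00, edgeR adjusted p = 3.90e-06), at means of 536 and 259 CPM. Its direction thus depended on the comparator. Homing genes gave 2 higher and 4 lower of 17. Among them the integrin gene Itgb2 (0.41) rose, while Itgb1 (-1.13), and Klf2 (-0.98) and S1pr1 (-0.92), which guide exit from tissues, fell. In the closer comparison 0 of 14 rose and 3 fell, Itgb1 (-1.14), Cxcr6 and the adhesion receptor gene Cd44 (-0.84), and Itgb2 (0.32), Klf2 (-0.44) and S1pr1 (-0.42) did not pass. Cxcr6, a receptor of tissue-resident T cells, was at 442, 448, 498 and 392 CPM in members. It did not pass against all others (0.08, adjusted p = 0.798) and was lower than in the closer comparator, which had 643, 639, 744 and 563 CPM (-0.56 ± 0.11, adjusted p = 1.60e-04).

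Of 17 receptor-signal and immediate early genes 1 rose, Jund (0.42), and 1 fell, Zfp36l1 (-1.83), an RNA-binding protein that destabilizes transcripts. The closer comparison gave 0 higher and 1 lower of 12, again Zfp36l1 (-2.10), and Jund did not pass (0.21, adjusted p = 0.363). Of 18 survival genes Bcl2 alone passed against all other CD8+ Tc (-0.43), and 3 of 14 fell in the closer comparison, Bcl2 (-0.73), Pim1 (-0.60) and Traf1 (-0.72). Of 14 glycolysis genes 3 fell, among them Ldha (-0.36), and in the closer comparison 0 of 12 passed. Of 11 genes of virtual and innate-like memory cells 6 fell, and Cd7, an immunoglobulin-family receptor of T and NK cells, rose (0.91, and 0.87 in the closer comparison). Neither Cd7 nor Nkg7 passed against the Nr4a2+ cells, at means of 1399 ± 196 and 4966 ± 433 CPM against 1503 ± 189 and 5250 ± 1096 CPM (SD, n = 4; adjusted p = 0.480 and 0.544).

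Among genes higher in all 4 libraries, with at least 20 CPM and without variable segments, the largest rises against all other CD8+ Tc were in genes of low abundance. Ndnf, a secreted fibronectin-domain protein, gave 2.01 ± 0.47 and Wdr95 gave 1.77 ± 0.25. Tesc, a calcium-binding regulator of sodium-proton exchange, stood at 68.7, 53.9, 51.5 and 86.3 CPM against 24.7, 25.9, 20.9 and 32.8 CPM (1.29 ± 0.26, adjusted p = 2.83e-05) without overlap. The others were I730030J21Rik (1.49), Gm20069 (1.29), Gm30211 (1.26), Tspyl3 (1.24), Kremen2 (1.22), Zfp799 (1.21) and Tbc1d13 (1.21). Gm20069 is annotated as antisense, and its partner's reads were not examined. Without Havcr2fl/fl;E8icre/+ replicate 1 the calls of Ndnf (1.85), Wdr95 (1.08), Gm30211 (1.29), Tspyl3 (1.42), Kremen2 (1.01), Zfp799 (1.20) and Tbc1d13 (1.39) were lost, and without replicate 2 of that genotype those of Ndnf (1.66), I730030J21Rik (1.18), Gm30211 (0.86), Zfp799 (1.07) and Tbc1d13. Tspyl3, Kremen2 and Tbc1d13 were also lost without Havcr2fl/fl replicate 1 (0.94, 1.01 and 1.00), and Tspyl3 and Tbc1d13 without Havcr2fl/fl replicate 2 (1.17 and 1.14). With cells thinned to 2000 UMIs the calls of Tesc (1.28, adjusted p = 0.0682), I730030J21Rik (0.93, adjusted p = 0.489), Kremen2 (0.63) and Zfp799 (1.28) were lost, and in DESeq2 those of Gm30211, Tspyl3, Kremen2, Zfp799 and Tbc1d13. Kremen2 did not pass in the closer comparison (0.94, adjusted p = 0.199), and Ndnf, Gm30211, Tspyl3, Zfp799 and Tbc1d13 were too sparse to be tested there. Among genes higher in all 4 libraries and within the same limits, which leave out Gzma, Tesc led the closer comparison (1.52 ± 0.29, adjusted p = 1.90e-04). It was followed by I730030J21Rik (1.48), Gm20069 (1.15), Ier3 (1.14), Wscd2 (1.13), Wdr95 (1.11), Lpin1 (1.09), Baiap3 (1.07), Fry (0.98) and Stmn1 (0.97). Baiap3, a protein of vesicle release, stood at 78.6, 131, 155 and 106 CPM against 52.5, 49.7, 46.4 and 62.2 CPM.

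The 10 falls named by fitted fold change were all in genes with 0 UMIs in the members, where only a bound can be given, so they cannot be ranked against falls that were measured. S100a8, a myeloid gene, for example, was at a mean of 507 CPM in the other CD8+ Tc and 7.46 CPM in members (8 UMIs). A floor of 3 counts over all members' summed UMIs is 3.45 CPM. Against it the mitotic genes Hmmr, Aspm, Cdc20, Aurkb and Ckap2l were at least 19.0, 12.8, 10.8, 10.2 and 8.93-fold lower, and the histone genes Hist1h3b and Hist1h2ak at least 15.3 and 8.45-fold lower. The rule kept cells with Mki67 or Top2a out of the members alone. Low mitotic and histone counts were thus largely set in advance and are no finding. Id3, which restrains effector differentiation in precursors, was at least 7.49-fold lower. The rule also kept Tcf7+ cells out of the members, and how much of the fall of Id3 goes with that was not tested. Fcer1g, a signaling adaptor of myeloid and innate-like cells, was at least 12.8-fold lower and Alas2, the erythroid heme synthesis enzyme, at least 6.87-fold lower. Bounds cover counting error only. The 10 largest falls in the closer comparison among genes lower in all 4 libraries were Tnfsf8 (-3.58), the invariant chain gene Cd74 (-3.35), Il7r (-3.11), the hemoglobin genes Hbb-bt (-3.06), Hba-a1 (-3.05) and Hbb-bs (-3.04), Nrgn (-2.61), the costimulatory receptor gene Tnfrsf4 (-2.53), Il18rap (-2.40) and the creatine kinase gene Ckb (-2.35). The falls of Cd74 and the hemoglobin genes were uneven between libraries. Cd74 was at 16.4, 13.5, 42.9 and 13.3 CPM in members against 44.7, 200, 52.2 and 605 CPM. Hbb-bt was at 13.1, 37.0, 17.2 and 92.9 CPM against 187, 38.6, 1677 and 117 CPM.

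Erythroid and myeloid markers summed lower in the members in each library, and their part in the results above was not tested. The 10 erythroid markers summed to 236, 216, 223 and 836 CPM in members and to 5672, 3120, 7952 and 5023 CPM in the other CD8+ Tc, led by the hemoglobin gene Hbb-bs. The closer comparator carried them too, at 2751, 280, 10986 and 1102 CPM, and all 4 erythroid genes tested were lower in members there (median -3.04). Hbb-bs was found in 34.7%, 40.0%, 62.5% and 63.3% of members and in similar shares of the others, 35.4%, 53.7%, 58.3% and 66.3%. Among the others, the 10 cells with most Hbb-bs held 57.3%, 93.7%, 97.5% and 88.2% of its UMIs. No member had more than 5 Hbb-bs UMIs. The 12 myeloid markers summed to 68.7, 43.8, 42.9 and 86.3 CPM in members, led by S100a9 or Prtn3, against 256, 738, 2919 and 324 CPM in the other CD8+ Tc and 1069, 149, 174 and 215 CPM in the closer comparator. The 8 B cell markers summed to 311, 404, 266 and 617 CPM, most of it Igkc, against 301, 3100, 313 and 2456 CPM, lower in 3 of 4 libraries. Of 8 NK cell markers 2 or 3 had a UMI in each library, and Cd160, which CD8+ T cells also express, was nearly all of the sum, which was 180, 411, 292 and 358 CPM against 272, 287, 311 and 309 CPM and so higher in members in 2 libraries. Of 3 γδ and NKT cell genes tested Tcrg-C1 was higher (1.29 ± 0.41, adjusted p = 0.0257, 22 UMIs).

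T cell receptor β variable segments, which the rule did not read, were sparse. A Trbv UMI was found in 15, 19, 8 and 10 members, over 7, 8, 7 and 4 segments. The leading segment held 29.4%, 30.8%, 26.7% and 36.4% of these UMIs, and was Trbv29, Trbv3, Trbv14 and Trbv12-2. In the other CD8+ Tc the leading segment held 27.6%, 22.8%, 14.8% and 14.7% of 391, 575, 310 and 218 UMIs. The leading α segment held 34.8%, 22.7%, 20% and 50% of Trav UMIs in members and 13.1%, 16.5%, 26.6% and 34.5% in the others. The members' values rest on 17, 26, 15 and 11 Trbv and 23, 44, 5 and 12 Trav UMIs, so a single cell can lead, and 3′ reads seldom reach the variable region. A leading share runs higher where few UMIs are counted, so these shares cannot be compared between members and others.

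The cells nearest by the rule were the 180 CD8+ Tc that met it except for at least 1 Nr4a2 UMI (86, 28, 20 and 46 cells). Against these, 119 of 2912 genes (4.09%) passed, 49 (1.68%) higher in members and 70 (2.40%) lower. Members were lower in the chemokine genes Ccl3 and Ccl4 and higher in Ly6c2 and Klf2. Ccl3 (chr11:83647844-83649355, minus strand) stood at 311, 381, 85.8 and 524 CPM in members and at 1537, 1480, 1271 and 4495 CPM in Nr4a2+ cells (-2.64 ± 0.16, adjusted p = 6.10e-14). Ccl4 (chr11:83662584-83664683, plus strand) stood at 583, 849, 275 and 1022 against 2699, 2297, 2336 and 6648 CPM (-2.31 ± 0.15, adjusted p = 1.53e-13). Neither gene overlapped between the sets. The mean Ccl5 level of the Nr4a2+ cells was 29386 ± 3168 CPM (SD, n = 4), within the range of the members.

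Ly6c2, a surface protein of circulating memory and effector T cells, stood at 216, 60.6, 197 and 345 CPM in members and at 17.9, 30.6, 46.8 and 33.5 CPM in Nr4a2+ cells (2.72 ± 0.29, adjusted p = 4.42e-08). Klf2 stood at 98.2, 90.9, 146 and 212 against 13.4, 61.2, 35.1 and 50.3 CPM (1.78 ± 0.30, adjusted p = 2.20e-04). Both were without overlap. Homing genes gave 3 higher and 0 lower of 10, among them Klf2 and the integrin gene Itgb7 (0.75). Among genes higher in all 4 libraries, Crip1 (1.12) and Slfn1 (1.09), a Schlafen family gene, were also among the 5 largest rises, with the marker Ctla2a. The call of Slfn1 was lost without either Havcr2fl/fl;E8icre/+ library (1.13 and 1.00) and without Havcr2fl/fl replicate 1 (0.96).

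Granule genes split in this comparison, with 2 of 12 higher and 2 lower. Gzmb was higher (0.79 ± 0.16, adjusted p = 1.97e-03), as was the marker Ctla2a, and the pore-forming Prf1 (-0.67) and Gzma were lower. Gzma was at 2876, 2389, 2196 and 5831 CPM in Nr4a2+ cells, above the members in each mouse (-1.48 ± 0.26, adjusted p = 4.11e-04). Inhibitory genes were lower in 4 of 12 and higher in 0 (median -0.48, against -0.01 over all genes tested). These were Lag3 (-0.56 ± 0.14, adjusted p = 0.0113), Tox (-0.45 ± 0.12, adjusted p = 0.0228), Cd160 (-0.51) and Cd244a (-0.80). Pdcd1 gave -0.43 (adjusted p = 0.0651). In DESeq2 the calls of Gzmb (0.83, adjusted p = 0.452), Gzma (-2.00, adjusted p = 0.471), Ctla2a, Tox and Lag3 were lost, and those of Tox and Lag3 also when cells were thinned to 2000 UMIs. All of these calls were also lost without the mouse block. Single libraries also decided them: Tox was lost without either Havcr2fl/fl;E8icre/+ library (-0.44 and -0.39) and without Havcr2fl/fl replicate 1 (-0.43), Lag3 without either Havcr2fl/fl library (-0.56 and -0.48), and Gzmb without Havcr2fl/fl;E8icre/+ replicate 2 (0.47).

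Other genes lower than in Nr4a2+ cells were the costimulatory receptor Tnfrsf9 (4-1BB, -1.85), the factors Ikzf2 (Helios, -1.30), Irf8 (-1.12) and Nfatc1 (-0.71), which acts downstream of the receptor, and the cell death gene Bax (-0.74). The homeodomain protein gene Hopx was higher (1.35), in 3 of 4 libraries. Nrgn, a calmodulin-binding protein, gave -2.22. The hemoglobin genes Hbb-bs (-4.64) and Hba-a1 (-4.61) were lower in all 4 libraries, and Hba-a2 (-4.50) and Hbb-bt (-4.37) in 3. The erythroid list summed to 5353, 260, 26028 and 11160 CPM in Nr4a2+ cells, and its part in the other differences was not tested. Of 11 glycolysis genes 0 passed.

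**Figure D3:**
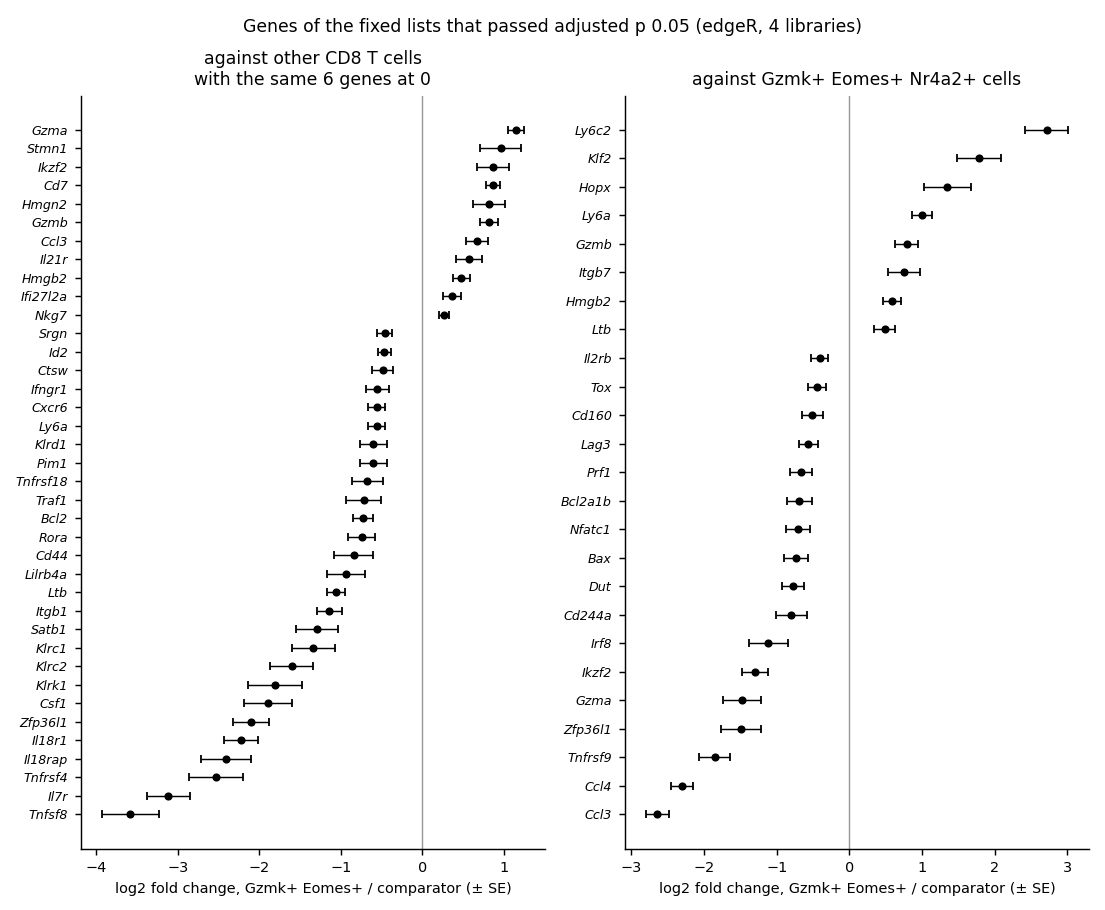
Genes of the fixed lists (rows, without erythroid, B cell and sex genes, the markers Ccl5 and Ctla2a, and a few genes not reported here) that passed an adjusted p of 0.05, with the log2 fold change of members over the comparator on the x axis (points, ± SE, edgeR, 4 libraries), for CD8+ Tc with the same 6 genes at 0 (left) and Nr4a2+ double-positive cells (right). Il7r and Tnfsf8 lie far to the left in the first panel, at -3.11 and -3.58, and Ccl3 and Ccl4 in the second, at -2.64 and -2.31.

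Before the genotypes were compared, Havcr2 (chr11:46454935-46481255, plus strand) was examined as the targeted gene. Members had 45.8, 0, 77.3 and 119 CPM, from 14, 0, 9 and 18 UMIs. The other CD8+ Tc had 61.0, 8.26, 51.8 and 113 CPM, and the Nr4a2+ cells 71.6, 5.10, 64.4 and 229 CPM. In the other CD8+ Tc and the Nr4a2+ cells, the library labelled Havcr2fl/fl;E8icre/+ replicate 1 held Havcr2 RNA at the level of Havcr2fl/fl replicate 1. In members it was below both Havcr2fl/fl libraries, on few UMIs. The library labelled Havcr2fl/fl;E8icre/+ replicate 2 was near 0 in each set. The RNA of Havcr2fl/fl;E8icre/+ replicate 1 thus goes against its label, and the cause was not tested. Members did not differ from the other CD8+ Tc in Havcr2 beyond error (-0.13, adjusted p = 0.872).

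Genotype was then compared in the share of CD8+ Tc that met the rule. It was 4.86% (95% Wilson interval 3.90 to 6.05) and 5.21% (3.97 to 6.80) in the libraries labelled Havcr2fl/fl;E8icre/+, of which the former held Havcr2 RNA at a control level, and 3.25% (2.01 to 5.21) and 3.85% (2.93 to 5.06) in the Havcr2fl/fl libraries. The means were 5.04% ± 0.244 and 3.55% ± 0.429 (SD, n = 2 each), a log2 ratio of 0.50. The libraries did not overlap by labelled genotype, and the exact two-sided permutation test gave p = 0.33, the smallest it allows with 2 against 2. Without the library labelled Havcr2fl/fl;E8icre/+ replicate 1 the log2 ratio was 0.55, given with no test. With cells thinned to 2000 UMIs the genotypes overlapped, at 4.17% and 2.84% against 2.71% and 3.45% (log2 ratio 0.18, exact p = 0.667). Gzmk and Eomes without the exclusions gave 29.0% and 23.0% against 23.9% and 21.5% (0.19, exact p = 0.667). The genotypes overlapped there too, since the second value was below the third. With at least 2 Gzmk UMIs required they did not overlap, at 2.46% and 3.44% against 1.62% and 1.89% (0.75), nor with at least 2 Eomes UMIs, at 2.79% and 3.54% against 2.03% and 1.02% (1.05), and the exact p was 0.33 for both.

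**Figure D4:**
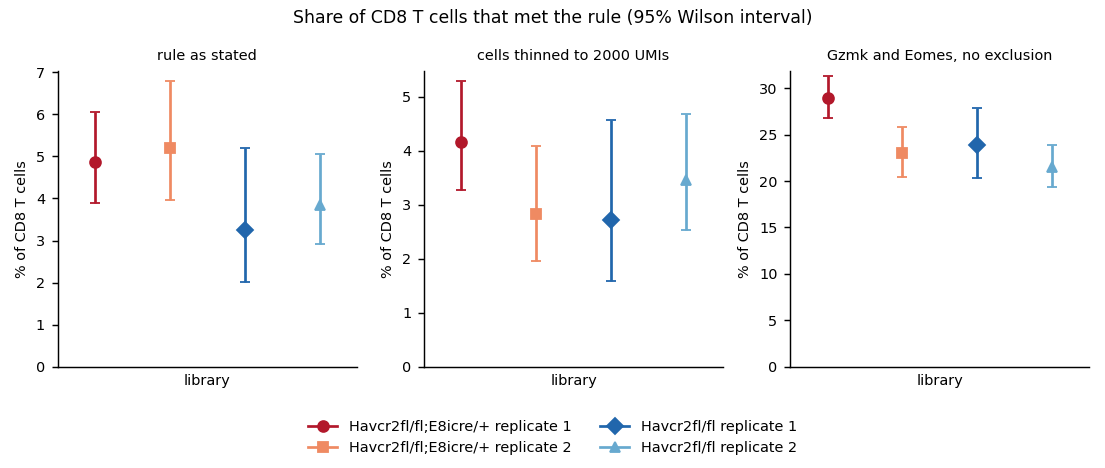
Share of CD8+ Tc (y axis, %) that met the rule in each library (points, 95% Wilson intervals) by the rule as stated, with cells thinned to 2000 UMIs, and with Gzmk and Eomes alone required. The labelled genotypes separate in the left panel, at 4.86% and 5.21% against 3.25% and 3.85%, and overlap in the other two; the library labelled Havcr2fl/fl;E8icre/+ replicate 1 held Havcr2 RNA at a control level.

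No gene passed for genotype in the members: 0 of 3591 (0.00%) by edgeR, with 149 at an unadjusted p under 0.05, and 0 by DESeq2, with 19. The test rests on 2 libraries per genotype and on 16 cells in Havcr2fl/fl replicate 1. The 5 genes of lowest p, which all missed the threshold at an adjusted p of 0.977, were as follows. Ifi27l2a, an interferon-stimulated gene, was at 894 and 1414 CPM in the libraries labelled Havcr2fl/fl;E8icre/+ and 369 and 411 CPM in the Havcr2fl/fl libraries. The γ-chain segment Trgv2 was at 81.8 and 111 against 25.8 and 6.64 CPM. The chromatin remodeler gene Chd6 was at 134 and 111 against 25.8 and 46.5 CPM, and the ubiquitin ligase gene Rnf213 at 147 and 121 against 8.58 and 53.1 CPM. The TNF receptor gene Tnfrsf1a was at 29.5 and 23.6 against 85.8 and 92.9 CPM. These 5 genes were picked by p, so the separation of their values is no finding. Leaving out Havcr2fl/fl replicate 1 brought Ifi27l2a (1.43, adjusted p = 0.00441) and Trgv2 (3.71, adjusted p = 0.0141) past the threshold, and leaving out replicate 2 brought Ifi27l2a (1.65, adjusted p = 0.00163) and Rnf213 (3.89, adjusted p = 0.00920) past it.

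Havcr2 itself gave -2.12 ± 0.79 for genotype in members (adjusted p = 0.977). It passed without Havcr2fl/fl replicate 1 (-2.41, adjusted p = 0.0150), and without the library labelled Havcr2fl/fl;E8icre/+ replicate 1, where the lone library of that genotype had 0 UMIs (adjusted p = 0.0407). Gzma gave -1.48 ± 1.09. It was -2.47 without Havcr2fl/fl;E8icre/+ replicate 1, -2.46 without Havcr2fl/fl replicate 1 and 4.05 without Havcr2fl/fl replicate 2, all past the threshold, so its direction rested on 1 library. A lone library in these fits is assumed to vary like the others. Whether the genotype difference itself differed between members and other CD8+ Tc was tested as an interaction: 0 of 9319 genes (0.00%) passed by edgeR, with 451 at an unadjusted p under 0.05, and 0 by DESeq2, with 88. A count of 0 does not show that the genotypes did not differ, and genes passed when single libraries were left out.

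**Figure D5:**
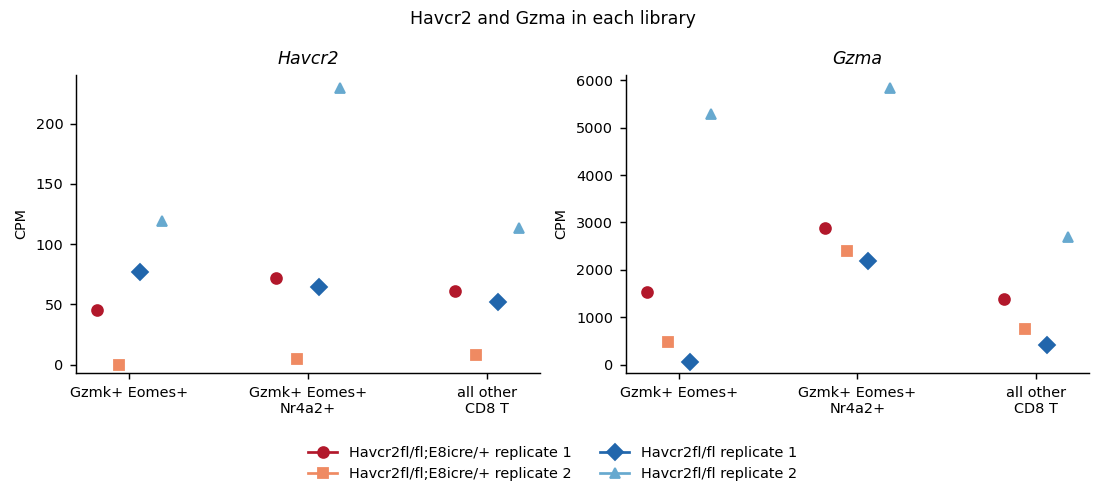
Havcr2 and Gzma (y axes, CPM) in each library for Gzmk+ Eomes+ members, Nr4a2+ double-positive cells and all other CD8+ Tc (x axis); each point is 1 library. Havcr2 in the library labelled Havcr2fl/fl;E8icre/+ replicate 1 lies near Havcr2fl/fl replicate 1 in Nr4a2+ cells and other CD8+ Tc. In members it lies below both Havcr2fl/fl libraries, at 45.8 CPM. Gzma in members ranges from 60.1 to 5295 CPM.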

How the data were processed

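Count matrices of UMIs per gene and barcode were deposited by the authors, made with Cell Ranger 6.1.2 against mm10 according to the submitters' processing notes, for 4 libraries from separate mice (32285 gene identifiers and 1 antibody tag, which served only as an alternative filter). The labels describe kit isolation of T cells. Libraries held 38386626, 31449644, 17693991 and 55045903 gene UMIs, of which members held 305533, 296951, 116501 and 150699. UMIs were summed per library and set of cells and fitted with edgeR 4.0.16 in R 4.3.3 (TMM, filterByExpr, quasi-likelihood test, Benjamini-Hochberg adjustment at 0.05), with the mouse as a block between cell sets and without it between genotypes. The SE is the log2 fold change divided by the square root of F. Genes the rule read were left out of the fits. Shares were compared by exact permutation over libraries. DESeq2 1.42.0, other filters and scalings, thinning to 2000 UMIs and leaving out each library were alternatives. Scripts were tested on simulated data. Doublets were scored with scanpy 1.11.5 and kept. In total 28 barcodes occurred in 2 libraries, and 2 members held such a barcode.

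The members and gene lists were chosen with earlier results of these data known. Named were Havcr2, the 10 largest rises and falls past the threshold against other CD8+ Tc and against the closer comparator (5 and 5 against Nr4a2+ cells) that had the same sign in all libraries and at least 20 CPM, without variable segments, the 5 lowest p for genotype, preset markers, and the most abundant called genes of each list. Single genes outside this rule, such as Ccl3 and Cxcr6 in the closer comparison, were named after their values were seen. Mx1, H2az1 and Aldoa are symbols of the lists that did not match a gene name. Promoter windows and the Gzmk sequence are from RefSeq (GRCm38.p6), where 7417 of the 9319 genes tested had a window, and Ccl5, Tox, Lag3 and Klrg1 had none. Gene coordinates are from GENCODE M21. Some genes of the lists are counted but not reported here by name.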

Additional observations from a re-analysis of the deposited data

How the results depend on the processing

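Against all other CD8+ Tc, 829 genes passed. The count was 126 with cells thinned to 2000 UMIs, 372 by DESeq2 (130 higher, 242 lower), 232 without the mouse block (40 and 192), 206 against the closer comparator, and 462 to 781 with single libraries left out, 470 without the library labelled Havcr2fl/fl;E8icre/+ replicate 1 and 462 without replicate 2. Without a filter on low counts it was 769, of which 159 were higher. Against Nr4a2+ cells, 119 became 23 by thinning, 28 by DESeq2, 15 without the mouse block and 62 to 110 with single libraries left out, at 71 without Havcr2fl/fl replicate 1, 68 without Havcr2fl/fl;E8icre/+ replicate 1 and 62 without replicate 2. For genotype in members, 0 became 3 without a filter and 0 to 30 with single libraries left out. Its interaction, at 0, became 1 without high doublet scores, 5 with a stricter cell filter and 1 to 6 with single libraries left out. The causes were not tested.

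Fisher's exact test on pooled cells, which treats cells as replicates, gave a log2 share ratio of 0.44 (p = 0.0420), and leaving out single libraries gave 0.39 to 0.63. Replicate numbers did not pair the mice (correlation of deviations -0.02 over 3591 genes), and with the replicate number as a block the share ratio was 0.51 (exact p = 0.5) and 0 genes passed for genotype in members.

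Uncalled signs turned for 6 genes against other CD8+ Tc. Havcr2 gave 0.61 against the closer comparator and -0.27 to 0.049 with single libraries left out. Pdcd1 gave -0.20 by thinning, -0.031 against the closer comparator and -0.054 to 0.14 with single libraries left out. Lag3 gave -0.0024 without a filter, -0.17 against the closer comparator and -0.030 to 0.11 with single libraries left out. Klrg1 gave -0.33 to 0.33 with single libraries left out, and -0.14 without Havcr2fl/fl;E8icre/+ replicate 1. Gzma gave -0.48 by DESeq2, -0.023 without a filter, -0.10 with the stricter cell filter and -0.44 to 0.24 with single libraries left out. Cxcr6 gave -0.13 by thinning and -0.56 against the closer comparator. For genotype in members, Gzma gave -2.47 to 4.05 with single libraries left out. Of the other values of named genes, 48 against other CD8+ Tc and 23 against Nr4a2+ cells lost their call with the same sign. Those lost without the mouse block were, against other CD8+ Tc, Gzmb, Slamf6, Zeb2, Fcer1g, Id3, Gm30211, Tspyl3, Kremen2, Zfp799 and Tbc1d13. Against Nr4a2+ cells they were Gzmb, Gzma, Ctla2a, Tox, Lag3 and Slfn1.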
